A study of Bos taurus and Ovis aries and Capra hircus with 9 samples.

Results

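The genes described here are FASN, ACACA and SREBF1, which belong to fatty acid synthesis, in livers of 3 ruminants: cattle, sheep and goats. They were chosen by identifier, with earlier results of these data known. The choice named 4 cattle genes (FASN, ACACA, SCD and SREBF1). Of these, 3 were found among the 27607 cattle genes of the count tables, each on its stated chromosome. The identifier given for SCD, a desaturase gene, was not found in these tables and SCD was not analysed here. FASN and ACACA were matched to 1 gene each in sheep and goats. SREBF1 was matched to 1 gene in sheep, and no goat gene met the matching rule.

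The livers came from healthy adults: 3 Holstein cattle aged 3 to 4 years, 3 Texel sheep aged 2 to 3 years and 3 Yunnan black goats aged 2 to 3 years, with 1 library of polyadenylated RNA per animal (replicates A, B and C). Each species is represented by 1 breed and was counted on its own genome and gene models. Species, breed, genome build and annotation therefore cannot be told apart in any comparison below. In comparisons with cattle, age cannot be told apart from these either. Sex, feeding and lactation state are not in the sample details used here. These are bulk tissue libraries, in which fewer cells of a type and less RNA per cell cannot be told apart. Whether the tissue carried hepatocyte markers was not checked, because the identifiers of other genes were not paired with names here.

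Fatty acid synthesis starts in the cytosol with acetyl-CoA. ACACA encodes acetyl-CoA carboxylase alpha, which makes malonyl-CoA, and FASN encodes fatty acid synthase, the enzyme that extends the chain with malonyl-CoA up to palmitate. SREBF1 encodes SREBP-1, a transcription factor that is held in a membrane-bound form and whose released part activates lipogenic genes, FASN and ACACA among them. In ruminants, adipose tissue is known as a main site of this synthesis, with acetate from the rumen as a main carbon source.

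Read depth was ample for these genes. The library totals ranged from 16507706 counts in goat replicate C to 61105490 in cattle replicate C, and 3 counts, used as the lowest level told from none, correspond to a level of 0.0491 to 0.182 CPM, the count scaled to a fixed library total. The lowest count of the 3 genes in any library was 311. Mitochondrial genes took 9.61% to 10.8% of counts in the cattle libraries, against 1.99% to 2.99% in those of sheep and 1.09% to 3.7% in those of goats, and taking them out of the totals moved mean levels by less than the spread between replicates in all 3 genes.

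The gene models are large and mostly undisturbed by other genes. In cattle (ARS-UCD1.2), FASN (ENSBTAG00000015980) lies on the plus strand of chromosome 19 from 50775674 to 50796012, with 42 exons and 9860 nt of exon length. Its sheep match ENSOARG00020025689 (Oar_rambouillet_v1.0, chromosome 11, 12314764 to 12331251, minus strand) has 42 exons and 7967 nt, and its goat match ENSCHIG00000018422 (ARS1, chromosome 19, 50153378 to 50174904, plus strand) has 43 exons and 11797 nt. In both matches, 38 internal exons were aligned to those of cattle by length and order, and no FASN exon overlapped an exon of another gene.

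Cattle ACACA (ENSBTAG00000017567) is on the minus strand of the same chromosome, from 13441162 to 13726679, with 59 exons and 8586 nt, of which 76 nt lie under exons of other genes. The sheep gene ENSOARG00020023744 (chromosome 11, 50060241 to 50348330, plus strand) has 58 exons and 9963 nt with 54 internal exons matched. The goat gene ENSCHIG00000014642 (chromosome 19, 13065661 to 13278456, minus strand) has 52 exons and 6990 nt with 48 matched. Exon length thus differs between the annotations of both enzymes, and levels are given as CPM and as CPM per kb of exon length.

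SREBF1 (ENSBTAG00000007884) is also on cattle chromosome 19, from 34633133 to 34649213 on the plus strand, with 22 exons and 4305 nt. The sheep gene ENSOARG00020026238 (chromosome 11, 28662482 to 28678578, minus strand) has 19 exons and 4064 nt, with 16 internal exons matched. In goats, the genes matched to the neighbours of SREBF1, ENSCHIG00000025058 and ENSCHIG00000020473, are 10.2 kb apart, against 25.8 kb for the corresponding neighbours in cattle. Between them the goat annotation has ENSCHIG00000009369 (1 exon, 92 nt), with 11, 14 and 21 counts in replicates A, B and C, and ENSCHIG00000024925 (2 exons, 207 nt), with 1309, 691 and 979 counts. Neither was assigned to SREBF1, so the goat level of this gene is not given.

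FASN was abundant in sheep liver and low in cattle and goat liver. In cattle, replicates A, B and C had 991, 1010 and 673 counts, which are 20.6, 17.9 and 11.0 CPM. The sheep libraries had 64289, 35627 and 10755 counts, or 1636, 874 and 380 CPM. In goats the counts were 1111, 848 and 737, or 31.2, 37.0 and 44.6 CPM. The lowest sheep library was thus 18.4 times the highest cattle library and 8.5 times the highest goat library in CPM, and no library of one species fell within the range of another.

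Mean FASN levels were 16.5 ± 4.97 CPM in cattle, 963 ± 633 in sheep and 37.6 ± 6.76 in goats (SD, n = 3 each). Per kb of exon length the means were 1.68 ± 0.504, 121 ± 79.4 and 3.19 ± 0.573 CPM per kb. Among all annotated genes of the species ranked by CPM, FASN was the 72nd, 140th and 335th most abundant in sheep replicates A, B and C. It ranked 4859, 5704 and 6913 in the cattle libraries and 3409, 2986 and 3550 in the goat libraries. By CPM per kb, FASN stood further from the top, at 487, 843 and 1801 in sheep replicates A, B and C. Those ranks were 9323, 10048 and 10857 in cattle and 9188, 8530 and 9688 in goats.

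ACACA followed the same order of sheep against the other two species. Its counts in cattle replicates A, B and C were 902, 1392 and 1015, or 18.8, 24.7 and 16.6 CPM. Sheep replicates had 22120, 13196 and 4706 counts, or 563, 324 and 166 CPM. The goat libraries had 667, 311 and 392 counts, or 18.7, 13.6 and 23.7 CPM. Every sheep library was above every cattle and goat library, whereas the cattle and goat values overlapped.

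The ACACA means were 20 ± 4.18 CPM in cattle, 351 ± 200 in sheep and 18.7 ± 5.09 in goats (SD, n = 3 each), and 2.33 ± 0.487, 35.2 ± 20 and 2.67 ± 0.728 per kb. ACACA ranked 220, 402 and 790 by CPM in sheep replicates A, B and C. Its ranks lay between 4572 and 5611 in cattle and between 5055 and 6049 in goats. By CPM per kb, ACACA stood further from the top, at 1513, 2322 and 4331 in sheep replicates A, B and C. Those ranks lay between 8762 and 9498 in cattle and between 9141 and 9983 in goats.

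SREBF1 differed less between cattle and sheep than the enzyme genes. Cattle replicates A, B and C had 2632, 2715 and 1809 counts, or 54.8, 48.2 and 29.6 CPM, and sheep replicates had 6027, 4212 and 2432 counts, or 153, 103 and 85.8 CPM. The lowest sheep library was 1.57 times the highest cattle library. Means were 44.2 ± 13.1 CPM in cattle and 114 ± 35.0 in sheep (SD, n = 3 each), with ranks of 2080 to 3652 and 845 to 1538. Per kb, SREBF1 was at 10.3 ± 3.04 in cattle and 28.1 ± 8.62 in sheep, with ranks of 3575 to 5408 and 2172 to 3637.

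Within cattle, SREBF1 was the most abundant of the 3 genes per kb in every library, with FASN and ACACA at a lower level close to each other. Within sheep the order differed: FASN was the highest of the 3 per kb in every library, while ACACA and SREBF1 overlapped (56.5, 32.5 and 16.7 against 37.7, 25.4 and 21.1 CPM per kb). In goats FASN and ACACA overlapped, with 2.64, 3.14 and 3.78 against 2.68, 1.94 and 3.4 CPM per kb.

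**Figure D1:**
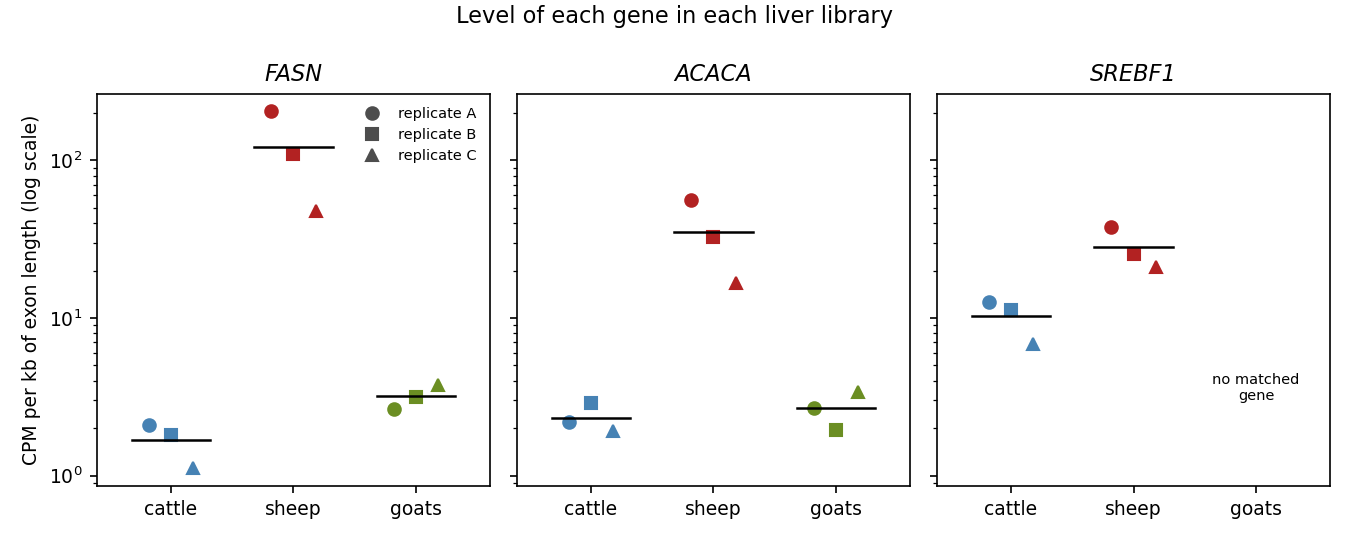
Level of FASN, ACACA and SREBF1 in each liver library, as CPM per kb of annotated exon length on a log scale; points are libraries (shape marks the replicate) and bars are the means of 3. The sheep libraries lie above the others in each gene, from 47.6 to 205 CPM per kb for FASN, and the cattle and goat values of ACACA overlap.

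To test these differences, counts of genes shared by the 3 species were fitted in edgeR with all 9 libraries, scaled by TMM factors that align the bulk of shared genes between libraries, and p-values were adjusted over the 8283 genes that passed a filter on low counts; both FASN and ACACA passed it. FASN was 54.5-fold higher in sheep than in cattle, a log2 fold change of 5.77 (SE 0.57, edgeR quasi-likelihood test, Benjamini-Hochberg adjusted p = 2.4e-05). Its 95% interval, approximate like those below, ran from 22.9-fold to 130-fold. Against goats, sheep FASN was 26-fold higher, with a log2 fold change of 4.70 (SE 0.54, edgeR adjusted p = 0.00018). Both differences were far larger than the spread between replicates.

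ACACA was 16.5-fold higher in sheep than in cattle, with a log2 fold change of 4.04 (SE 0.44, edgeR adjusted p = 4e-05). Over goats it was 19.4-fold higher, or 4.27 on the log2 scale (SE 0.44, edgeR adjusted p = 8.6e-05). The contrasts of sheep with cattle and of sheep with goats share the sheep libraries, so they are not independent.

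Many genes differed between these species, and the calls are read against that background. Of the genes tested, 25.5% were called higher in sheep than in cattle and 11.2% higher in sheep than in goats, and 5.76% (477 genes) were called higher than in both. In 9.89% of the genes tested, every sheep library was above every cattle and goat library, as it was in both FASN and ACACA. By size, FASN was the 85th highest of the 8283 log2 fold changes of sheep over cattle and the 56th highest over goats, and ACACA was the 229th and the 73rd. When each gene was ranked by the smaller of its log2 fold changes over cattle and goats, FASN was at rank 25 (4.70) and ACACA at rank 43 (4.04).

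**Figure D2:**
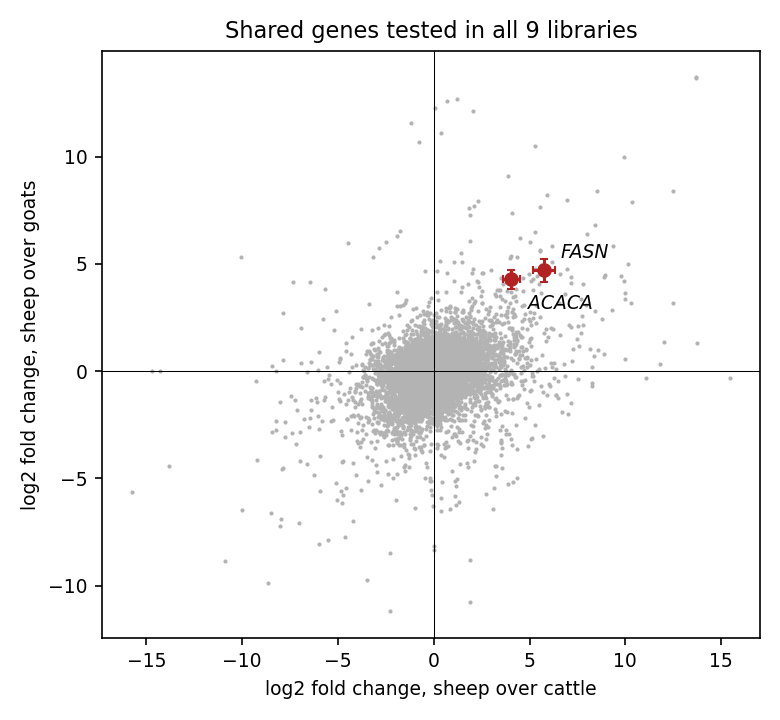
Log2 fold change of sheep over cattle (horizontal) and of sheep over goats (vertical) for the 8283 shared genes tested in edgeR; grey points are genes, and red points with bars are FASN and ACACA with their SE. FASN lies at 5.77 and 4.70 and ACACA at 4.04 and 4.27, both away from the centre of the cloud in the direction of higher levels in sheep; the axes share the sheep libraries.

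Goats and cattle differed much less in the enzyme genes. FASN had a log2 fold change of 1.07 for goats over cattle (SE 0.47, 2.1-fold, unadjusted 95% interval 1.02-fold to 4.3-fold), which missed the threshold of edgeR (adjusted p = 0.078), although every goat library was above every cattle library. Of all genes tested, 52.6% were called between goats and cattle in either direction and 62.2% had libraries that did not overlap. The FASN call depended on the settings. It passed with DESeq2, and in edgeR with only the libraries of both species and without sheep replicate C. It also passed in edgeR with scaling by the shared-gene total and with the replicate letter as a block. In these DESeq2 and edgeR runs adjusted p was between 0.016 and 0.04 (log2 fold change 1.03 to 1.33). With an offset of exon length the log2 fold change was 0.81, with adjusted p = 0.17 in edgeR.

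For ACACA the goat minus cattle difference was -0.23 on the log2 scale (SE 0.39, edgeR adjusted p = 0.64). Its 95% interval, 0.472-fold to 1.54-fold, does not include a difference of the size seen in sheep. The sign of this small difference turned with an offset of exon length (0.07) and with scaling by the shared-gene total without TMM (0.05), so no direction is given.

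SREBF1 was tested among the 8887 genes shared by cattle and sheep that passed the same filter, with 6 libraries in the fit. It was 2.43-fold higher in sheep, with a log2 fold change of 1.28 (SE 0.31, edgeR adjusted p = 0.009) and a 95% interval of 1.47-fold to 4-fold. This call had a higher background: 29.5% of the genes in that fit were called higher in sheep, 34.1% had every sheep library above every cattle library, and SREBF1 ranked 1655. In the same 6 libraries the log2 fold changes of FASN and ACACA were 5.78 and 4.06.

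The ratio of these genes to each other within a library needs no scaling of library totals between species. It still depends on the exon length of each gene model. FASN over ACACA, as a ratio of CPM, in replicates A, B and C was 1.1, 0.726 and 0.663 for cattle, 2.91, 2.7 and 2.29 in sheep and 1.67, 2.73 and 1.88 in goats. The geometric means were 0.809, 2.62 and 2.04. An exact permutation test of the F statistic over all 1680 assignments of the 9 libraries to species gave p = 0.0107 (two-sided, adjusted p = 0.0321 over 3 ratios). This call was lost in 4 of the 9 exact permutation tests that left out 1 library: without sheep replicate A, goat A or goat C (adjusted p = 0.0643 each) and without sheep replicate B (adjusted p = 0.0536). The sheep and cattle ratios did not overlap, and the sheep and goat ratios did.

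Per kb of exon length, the sheep ratios stood apart from both other species. They were 3.63, 3.38 and 2.86, against 0.957, 0.632 and 0.577 in cattle and 0.987, 1.62 and 1.11 in goats. The exact permutation p was 0.00357, the smallest that 9 libraries can give here (adjusted p = 0.0107). Which of these ratios is used changes the place of goats, near sheep in CPM and near cattle per kb. The annotated exons of FASN sum to 11797 nt in goats and 7967 nt in sheep. Those of ACACA differ the other way, with 6990 nt in goats and 9963 nt in sheep.

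Relative to SREBF1, both enzymes were far higher in sheep than in cattle. FASN over SREBF1 in CPM in replicates A, B and C was 0.377, 0.372 and 0.372 for cattle and 10.7, 8.46 and 4.42 in sheep. The cattle ratios were nearly equal, and the sheep ratios were all above them and spread widely. ACACA over SREBF1 was 0.343, 0.513 and 0.561 in cattle and 3.67, 3.13 and 1.94 in sheep. Neither pair of groups overlapped, but with 3 against 3 libraries the exact permutation test cannot go below p = 0.1, which is the value found for both ratios.

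**Figure D3:**
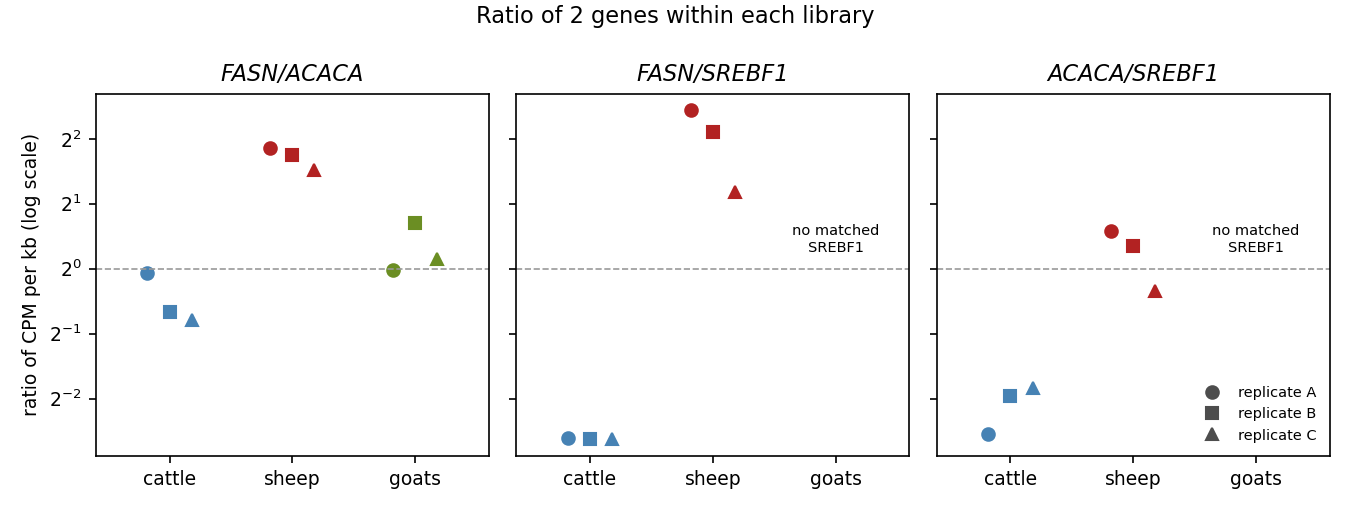
Ratio of CPM per kb of exon length between pairs of the 3 genes within each library, on a log scale with a dashed line at 1; points are libraries and shape marks the replicate. FASN over ACACA is 2.86 to 3.63 in sheep, above all cattle and goat libraries, and FASN over SREBF1 is 0.162 to 0.164 in cattle.

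FASN and ACACA varied more among the sheep libraries than among those of cattle or goats. FASN in the highest sheep library was 4.31 times that in the lowest in CPM, against 1.87 times in cattle and 1.43 times in goats. The same quotient for ACACA was 3.39 in sheep, 1.49 in cattle and 1.75 in goats. For SREBF1 it was 1.79 in sheep and 1.85 in cattle. These spreads, of 3 libraries each, were not tested against each other. On the log2 scale of TMM-scaled CPM, the SD over the 3 sheep was 1.12 for FASN, above that of 97.8% of 5822 shared genes whose mean CPM was 10 or more. For ACACA it was 0.94, above 95.8% of those genes, and for SREBF1 0.48, above 76.9% of 6201 genes.

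In all 3 genes, sheep replicate A was the highest and replicate C the lowest, an order that 8.27% of the genes shared by the 3 species had. Replicate A exceeded C by 2.15 in FASN, 1.81 in ACACA and 0.90 in SREBF1 on the log2 scale, which were above the values of 99.8%, 99.7% and 98.1% of genes. The share of mitochondrial counts was also highest in sheep replicate A (2.99%), with 2.37% in B and 1.99% in C; its part in these differences was not tested.

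In cattle the 3 genes did not vary equally. FASN and SREBF1 had SDs of 0.46 and 0.47 on the log2 scale, above 88.8% and 89.1% of genes, with replicate A highest and C lowest in both. The SD of ACACA in cattle was 0.21, with replicate B highest. In goats the SDs of FASN and ACACA were 0.20 and 0.21, below those of most genes (above 16.6% and 18%).

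How the genes moved together was described by centring each on its species mean and correlating the deviations, with no test. For FASN and ACACA, Pearson's r was 0.895 and Spearman's rho 0.750 over 9 libraries, which hold 6 independent deviations. This rested on the sheep: r was 0.432 without sheep replicate C and 0.199 over the 6 cattle and goat libraries. For FASN and SREBF1, r was 0.926 over 6 libraries with 4 independent deviations, and at least 0.921 with any 1 library left out. For ACACA and SREBF1, r was 0.792, and 0.572 without sheep replicate C. The values within a library share its depth and scaling.

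The deviations show how far each gene moved. In sheep replicates A, B and C, FASN deviated from its mean by 0.90, 0.35 and -1.25 on the log2 scale and ACACA by 0.75, 0.30 and -1.05. SREBF1 deviated by 0.36, 0.18 and -0.54, a smaller range in the same order. In cattle, SREBF1 deviated by 0.42, 0.08 and -0.51 and FASN, in the same fit, by 0.43, 0.08 and -0.50, so that these genes moved by nearly equal amounts there.

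**Figure D4:**
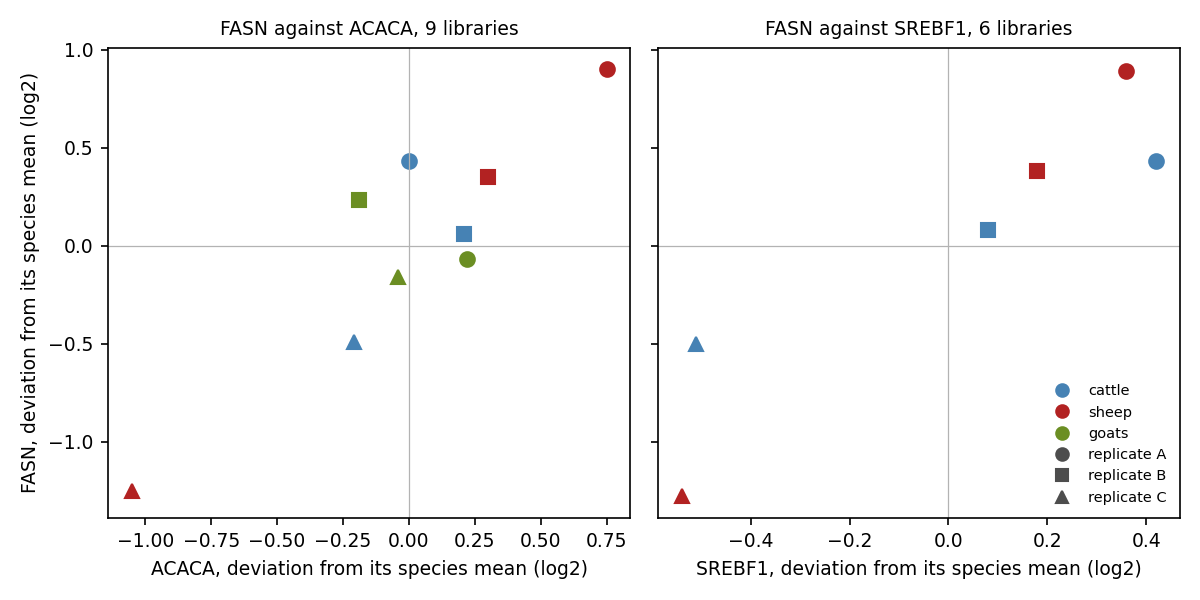
Deviation of each library from its species mean, in log2 TMM-scaled CPM, for FASN (vertical) against ACACA in 9 libraries (left) and against SREBF1 in 6 libraries (right); colour marks the species and shape the replicate. Sheep replicates A and C lie at the ends in the left panel, and in the right panel replicate C of both cattle and sheep lies below the other libraries in both genes.

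Among 6123 shared genes whose mean CPM was 10 or more, ACACA was the 4th most alike to FASN by this correlation, behind ENSBTAG00000011805 (r = 0.973), ENSBTAG00000018724 (0.948) and ENSBTAG00000019478 (0.90). Those most like ACACA were ENSBTAG00000011805 (0.937), ENSBTAG00000019975 (0.934) and ENSBTAG00000016740 (0.923), with FASN at rank 6. Both enzyme genes deviated most in the sheep libraries, which therefore weigh most in these ranks. The ranks were not repeated without sheep. The genes most like SREBF1 over 6 libraries were ENSBTAG00000020930 (0.994), ENSBTAG00000049864 (0.991) and ENSBTAG00000009743 (0.990), and FASN was at rank 65 and ACACA at rank 393 of 6437. The genes named for the enzymes differed in level in both directions: between sheep and cattle, ENSBTAG00000011805 was lower in sheep (log2 fold change -0.85, edgeR adjusted p = 0.021), while ENSBTAG00000019478 (3.38, edgeR adjusted p = 1e-05) and ENSBTAG00000016740 (1.75, edgeR adjusted p = 0.00092) were higher. ENSBTAG00000018724 (-0.31) and ENSBTAG00000019975 (-1.13) did not pass the test.

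The 3 genes share cattle chromosome 19, far from each other, and the nearest shared genes that were tested were looked at beside them. Those genes lay up to 674 kb from FASN, 864 kb from ACACA and 491 kb from SREBF1. They therefore do not show where along the chromosome the difference ends. Of the 5 tested genes on each side of FASN, 6 of 10 were called higher in sheep than in cattle and 1 lower, with log2 fold changes from -0.57 to 2.52; over all genes tested, 25.5% were called higher and 23.3% lower. Over goats, the calls in edgeR were 2 lower genes, with log2 fold changes from -1.66 to 0.68, where 11.2% of all genes tested were called higher and 13.9% lower. Around ACACA, 2 of 10 were called higher and 2 lower than in cattle (-1.76 to 1.55), and 3 of 10 higher than in goats (-0.94 to 1.97), against the same shares of all genes. Around SREBF1, 5 of 10 were called higher and 1 lower than in cattle (-1.08 to 1.43), where 29.5% of all genes in that fit were called higher and 27.1% lower. Neighbours were not tested as a set, and with 10 genes each these counts are a description.

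Both enzyme genes were above all 10 of their neighbours in both contrasts. SREBF1 was not: ENSBTAG00000004635, the fourth tested gene to one side, had a log2 fold change of 1.43 against 1.28 for SREBF1.

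**Figure D5:**
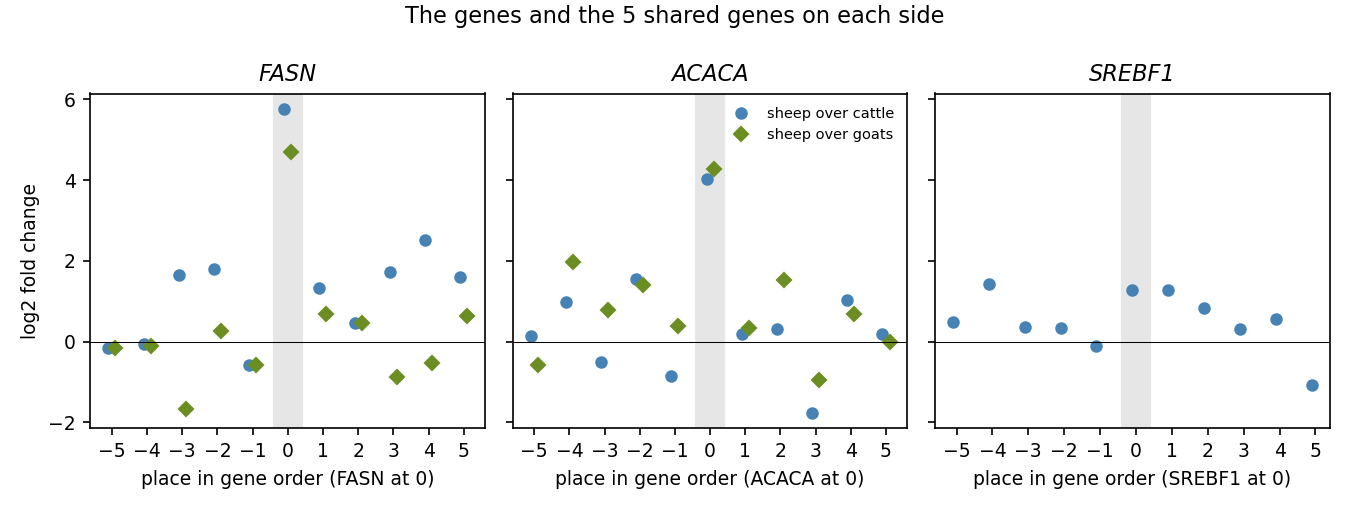
Log2 fold change of sheep over cattle (circles) and over goats (diamonds) for each gene (grey band, place 0) and the 5 tested shared genes on each side, in cattle gene order. Places are evenly drawn and do not show distance. FASN and ACACA lie between 4.04 and 5.77 and their neighbours between -1.76 and 2.52, while SREBF1 at 1.28 lies within the range of its neighbours.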

How the data were processed

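Polyadenylated liver RNA of 9 animals was sequenced. Per the labels and the methods of the study, the authors trimmed reads (Trimmomatic 0.39), mapped them with STAR 2.7.6 and deposited raw counts per gene from featureCounts, with exon positions and exon length. Strand and read-pair options are not given in the sources used here, so antisense reads cannot be separated. The genes and lists were chosen with earlier results of these data known.

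Shared genes were paired across species by reciprocal best match of ordered internal-exon lengths (score 1.05 times the next best, at least 2 internal exons and 50% matched) and by gene order (at least 2 other pairs within 10), which gave 9443 for the 3 species and 10617 for cattle and sheep. The matching and the fit were tested on simulated data. Genes with CPM above 1 in at least 2 libraries entered a quasi-likelihood fit with TMM factors in edgeR 4.0.16, run under R 4.3.3 (robust, species only, Benjamini-Hochberg, threshold 0.05). SREBF1 was fitted on cattle and sheep alone, since it had no goat match. DESeq2 1.42.0 was an alternative. Logs of CPM took a pseudocount of 0.5. Likeness named the 3 genes of highest centred r, and 3 counts were the floor; counting error alone is covered. Replicates are separate animals.

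Lists of pathway and marker genes and promoter motifs were not used here, since names could not be paired with the identifiers.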

Additional observations from a re-analysis of the deposited data

How the results depend on the processing

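For FASN and ACACA, sheep over cattle and sheep over goats kept their direction and call under every alternative run (DESeq2, 2 other scalings, 2 other filters, exon-length offset, 2 species alone, matches of at least 4 internal exons, replicate block and each library left out), and so did SREBF1, sheep over cattle, under those it could be given. With 1 library left out, log2 fold changes over cattle ran from 5.31 to 6.17 (FASN), 3.67 to 4.41 (ACACA) and 1.05 to 1.51 (SREBF1), and over goats from 4.29 to 5.11 (FASN) and 3.94 to 4.64 (ACACA). FASN, goats over cattle, passed the threshold with DESeq2 (1.06), the shared-gene total without TMM (1.33), only the 2 species (1.03), the replicate block (1.15) and without sheep replicate C (1.07), and ran from 0.80 to 1.26 with 1 library left out. ACACA, goats over cattle, turned to 0.05 without TMM and 0.07 with the exon-length offset, and ran from -0.42 to -0.12 with 1 library left out; the cause was not tested. The log2 ratio of FASN to ACACA, sheep minus cattle, was 1.69 and ran from 1.55 to 1.92 with 1 library left out. The exact permutation test of this ratio covers all 3 species and is no test of sheep against cattle alone. That exact permutation test lost its call without sheep replicate A, sheep B, goat A or goat C (adjusted p 0.0536 to 0.0643).

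Correlations of deviations between species for equal letters ran from -0.196 to 0.290. They were highest between sheep and goats, at 0.286, 0.290 and 0.015 for A, B and C. So few libraries cannot decide whether equal letters mark a shared batch, and this was not tested. Under the replicate block, sheep over cattle was 5.64 (FASN), 3.93 (ACACA) and 1.28 (SREBF1), and the block changed no other call than that of FASN, goats over cattle. Split into higher and lower, calls over all genes were 2109 and 1932 for sheep over cattle (2966 and 1083 with the exon-length offset) and 2330 and 2027 for goats over cattle (2525 and 1248 without TMM, 2690 and 1524 with the offset). In all, 924 were higher and 1151 lower in sheep than goats, against 524 and 1024 without TMM and 1345 and 739 with the exon-length offset, and 590 higher without goat replicate B, 620 without sheep replicate C and 630 with 2 species alone. The alternatives on lists of pathway genes were not run, for want of names. The fit on cattle and sheep alone, r without the sheep and, for these genes, the 4-exon match were chosen after seeing the data.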
